A study of Mus musculus with 4 samples.

Results

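The 10 genes described here are the nuclear effectors of the Hippo pathway and genes commonly used to read their activity. They were taken by symbol from a table of 24637 genes, and each symbol matched 1 row. They comprise the co-activators *Yap1* and *Wwtr1* (which encodes Taz), the transcription factors *Tead1*, *Tead2*, *Tead3* and *Tead4*, and the target genes *Ctgf* (Ccn2), *Cyr61* (Ccn1), *Amotl2* and *Ankrd1*. The study asked how loss of Taf4, a subunit of the general transcription factor TFIID, alters differentiation of mouse embryonic stem cells (ESCs). Polyadenylated RNA was sequenced from 4 ESC lines, 2 WT (*Taf4*+/+) and 2 labelled *Taf4a*-/- (*Taf4*-/-), at day 9 of cardiac differentiation. The lines are independent and came from blastocysts of crosses between *Taf4a*+/- mice, the null allele being a deletion of exons. All were kept on inactivated embryonic fibroblast feeders with serum and LIF, then grown for 5 days as embryoid bodies and for 9 days on gelatin in serum. The design text counts 4 lines for the 4 libraries, so each library is taken as 1 line, and no sorting of cells is described.

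The libraries held 21732746 to 27733034 reads counted on genes. Values are normalized counts, reads per gene divided by 1 size factor per library, and 16926 genes with a mean of at least 10 were compared with limma on log2(normalized count + 1). Calls were made at an adjusted p-value under 0.05 (Benjamini-Hochberg, over all of these genes). *Taf4a* (ENSMUSG00000039117), the targeted gene, stood at 889 and 678 normalized counts in the WT lines, against 1722 and 1799 in those labelled *Taf4a*-/-. Its RNA was higher where the label calls for loss, by a log2 fold change of 1.18 (SE 0.16, adjusted p = 0.00569 from limma), and a count over the whole gene does not separate the deleted exons. The direction of every comparison below is that of the labels. The paralogue *Taf4b* was also higher, by 1.37 (SE 0.26, adjusted p = 0.0143 from limma). Of 9 cardiomyocyte markers tested, 9 were called lower in the libraries labelled *Taf4a*-/-, and the summed level of the 10 listed was 25544 to 27869 normalized counts in WT against 2109 to 2605. The marker *Tnnc1* was at 1 read in WT replicate 1 and at 0 in the other libraries, under the minimum for testing. Whether this row reflects the RNA of the gene or a limit of the counting was not tested. Fewer cells of a type and less RNA per cell cannot be told apart in such bulk cultures.

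In the Hippo pathway the kinases Mst1 and Mst2, with their adaptor Sav1, activate Lats1 and Lats2, which phosphorylate Yap and Taz and hold them in the cytoplasm. Unphosphorylated Yap and Taz enter the nucleus and, having no DNA-binding domain of their own, act through the Tead factors. In the heart, Yap and Tead1 are known for promoting proliferation of fetal cardiomyocytes, and in the early embryo Tead4 is known for its role in the trophectoderm. Much of this control acts on protein location, which RNA levels do not measure.

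The Tead factors bind the sequence CATTCC, known in muscle genes as the M-CAT element. It was searched on both strands (CATTCC or GGAATG, no other motif) in RefSeq promoter windows of GRCm38.p6, from 250 bases before to 50 bases after each annotated start. Of the members, 7 had a window, 10 windows in all, and *Tead1*, *Tead4* and *Ctgf* had none. At least 1 match was found for 6 of these 7 genes, all but *Tead2*, against 16.6% of 27025 genes. It was found for 10 of 25 regulators with a window (40.0%) and for 4 of 12 other targets (33.3%) from the lists of pathway genes used here. A gene counted if any of its windows matched. By window, 8 of the 10 matched, against 14.7% of 32851 windows searched. The target members were listed as known targets of these factors, so their matches are not an independent result. A match describes these letters only and is not a mapped binding site. The windows of the called genes *Ankrd1* and *Tead3*, and of the targets *Cyr61* and *Amotl2*, are shown 5′ to 3′ on the strand of the gene, with the matches in capitals. The *Ankrd1* window (chr19:36119795-36120094, minus strand) has matches starting at positions -210 and -123 from the start. The *Tead3* window shown, the second of 3 annotated starts (chr17:28350551-28350850, minus strand), has the most, at -123, -114 and 2. The *Cyr61* window (chr3:145649936-145650235, minus strand) has a match at -103 and that of *Amotl2* (chr9:102717554-102717853, plus strand) at -65.
Ankrd1: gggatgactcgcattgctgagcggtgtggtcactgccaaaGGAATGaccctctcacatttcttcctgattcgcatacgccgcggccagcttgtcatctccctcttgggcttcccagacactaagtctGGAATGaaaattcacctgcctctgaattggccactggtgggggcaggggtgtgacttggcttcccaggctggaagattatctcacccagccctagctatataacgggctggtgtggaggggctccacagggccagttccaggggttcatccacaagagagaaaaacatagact
Tead3: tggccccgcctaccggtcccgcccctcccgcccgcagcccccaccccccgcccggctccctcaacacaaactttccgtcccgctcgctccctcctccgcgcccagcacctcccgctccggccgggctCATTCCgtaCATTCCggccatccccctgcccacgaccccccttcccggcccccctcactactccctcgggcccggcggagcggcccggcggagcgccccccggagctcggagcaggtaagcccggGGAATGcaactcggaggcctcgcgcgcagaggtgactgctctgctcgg
Cyr61: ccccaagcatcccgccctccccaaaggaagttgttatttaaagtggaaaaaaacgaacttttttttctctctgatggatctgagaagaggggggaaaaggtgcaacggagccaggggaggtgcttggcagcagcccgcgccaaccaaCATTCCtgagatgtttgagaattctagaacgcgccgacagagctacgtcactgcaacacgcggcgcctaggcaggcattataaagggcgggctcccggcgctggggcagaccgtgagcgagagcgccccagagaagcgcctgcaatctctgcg
Amotl2: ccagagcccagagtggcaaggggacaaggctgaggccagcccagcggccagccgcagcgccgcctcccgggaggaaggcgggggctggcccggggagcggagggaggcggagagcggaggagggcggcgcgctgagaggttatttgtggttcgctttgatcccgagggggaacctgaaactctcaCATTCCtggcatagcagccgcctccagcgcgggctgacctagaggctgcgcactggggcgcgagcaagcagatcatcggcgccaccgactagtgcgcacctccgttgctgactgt

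Among the 10 genes, *Tead3* and *Ankrd1* were lower in the libraries labelled *Taf4a*-/-, and 0 were called higher. This 2 in 10 stands beside 28.6% of all tested genes called, 17.3% lower and 11.3% higher, and is near that background. At an unadjusted p-value under 0.05, 4 of the 10 passed, where 42.5% of all tested genes did. With voom on the recovered reads, which called 27% of all tested genes, *Tead3* (adjusted p = 0.00800) and *Ankrd1* (adjusted p = 0.0272) were again lower and 0 members higher. The values of *Cyr61* and *Tead4* lay above the WT range in both libraries labelled *Taf4a*-/-, and those of *Yap1*, *Wwtr1*, *Tead3* and *Ankrd1* below it. These counts of 2 higher and 4 lower without overlap stand beside 34.5% and 36.6% of all tested genes, 71.1% together. The median log2 fold change was 0.06, against -0.01 over all tested genes. With 2 libraries against 2, a two-sided permutation test of a single gene cannot go below p = 0.333, so each call rests on the spread that limma shares across genes.

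**Figure D1:**
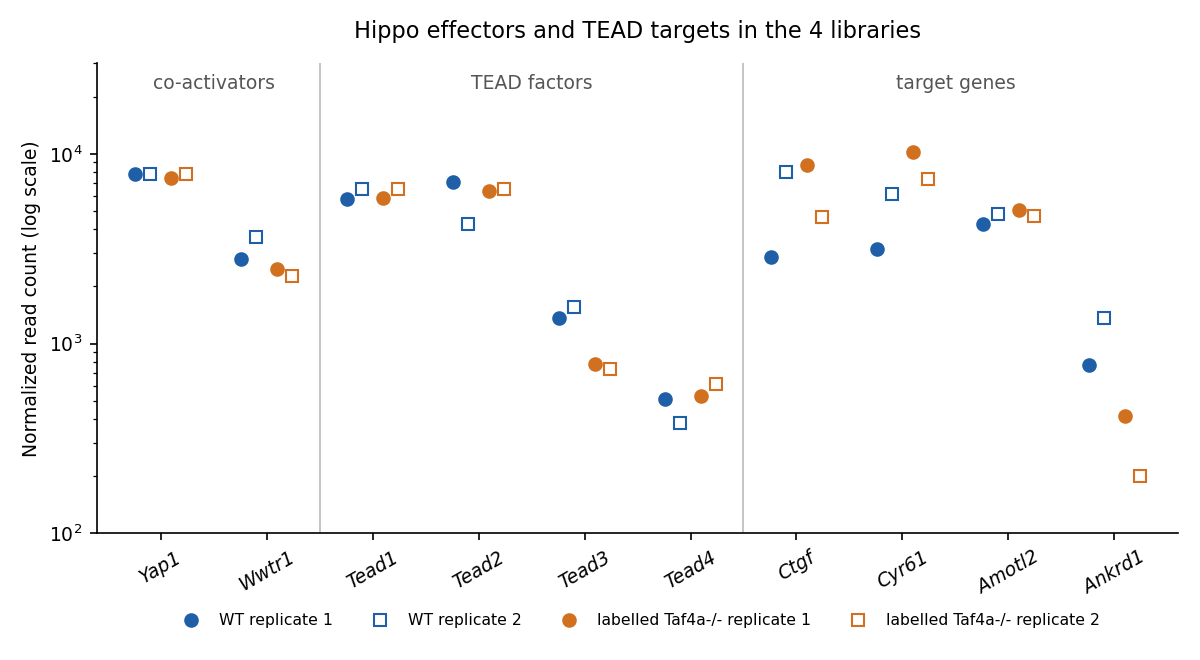
Normalized read count (log scale) of each of the 10 genes in each of the 4 libraries, 1 point per library, blue for WT and orange for the libraries labelled Taf4a-/-, circles for replicate 1 and squares for replicate 2. Tead3 (1368 and 1561 against 778 and 729.9) and Ankrd1 (773 and 1368 against 417 and 200.2) separate downwards, whereas the WT libraries differ from each other for Ctgf, 2852 against 7984.

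The co-activator *Yap1* (ENSMUSG00000053110, chr9:7931999-8004596 of NCBIM37, minus strand) stood at 7840.4 and 7816 normalized counts in WT, against 7448 and 7804 in the libraries labelled *Taf4a*-/-. The 4 values were nearly level, although both of the latter lay below both WT values. The log2 fold change was -0.04 (95% interval -0.31 to 0.24, adjusted p = 0.823 from limma), and it was 0.02 when libraries were scaled to equal totals. *Wwtr1* (ENSMUSG00000027803, chr3:57259571-57379832, minus strand), whose product Taz is the paralogue of Yap, had 2797 and 3650.2 normalized counts in WT, against 2464 and 2258 in the libraries labelled *Taf4a*-/-. The groups did not overlap, and WT replicate 2 stood highest. The log2 fold change of -0.44 (SE 0.16, 95% interval -0.82 to -0.06) missed the threshold (limma, adjusted p = 0.0844). Without WT replicate 1 it was -0.63 and passed it (adjusted p = 0.0246). Without each of the other libraries it missed it, at -0.25 without WT replicate 2 (adjusted p = 0.167) and with adjusted p = 0.203 and 0.344 without the libraries labelled *Taf4a*-/- replicates 1 and 2.

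*Tead3* (ENSMUSG00000002249, chr17:28468616-28487750, minus strand), 1 of the 4 paralogous DNA-binding partners of Yap and Taz, fell in the libraries labelled *Taf4a*-/-. It had 1368 and 1561 normalized counts in WT, against 778 and 729.9 in the libraries labelled *Taf4a*-/-, which is 1464 ± 136 against 754 ± 34.1 (SD, n = 2 each). The replicates of each genotype were close together and far from the other pair. The difference was 1.94-fold, with a log2 fold change of -0.95 (SE 0.13, 95% interval -1.28 to -0.63, adjusted p = 0.00600 from limma). It passed in each of the 4 fits that left out 1 library, with values from -1.05 to -0.86 and adjusted p from 0.0153 to 0.0391.

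The other Tead genes were not called. *Tead1* (ENSMUSG00000055320, chr7:119822832-120050319, plus strand), the family member best known in heart muscle, had 5763 and 6486 normalized counts in WT, against 5849 and 6495 in the libraries labelled *Taf4a*-/-. The groups overlapped, with a log2 fold change of 0.01 (95% interval -0.30 to 0.32, adjusted p = 0.953 from limma). A second annotated gene also named *Tead1* shares 34.2% of its exon bases, so its level may be affected by how reads there were counted. *Tead2* (ENSMUSG00000030796, chr7:52471123-52489005, plus strand) had 7063 and 4243 normalized counts in WT, against 6381 and 6489.9 in the libraries labelled *Taf4a*-/-. Only WT replicate 2 stood apart, below the other 3 libraries. The log2 fold change of 0.23 (95% interval -0.34 to 0.81, adjusted p = 0.486 from limma) became 0.60 without WT replicate 1, which passed the threshold (adjusted p = 0.0194), and -0.13 without WT replicate 2, which did not (adjusted p = 0.295). *Tead4* (ENSMUSG00000030353, chr6:128174306-128250841, minus strand) had 513 and 383 normalized counts in WT, against 527 and 609 in the libraries labelled *Taf4a*-/-. Both of the latter lay above WT, with a log2 fold change of 0.35 (95% interval -0.12 to 0.83, adjusted p = 0.221 from limma). It ran from 0.14 to 0.56 when 1 library was left out.

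**Figure D2:**
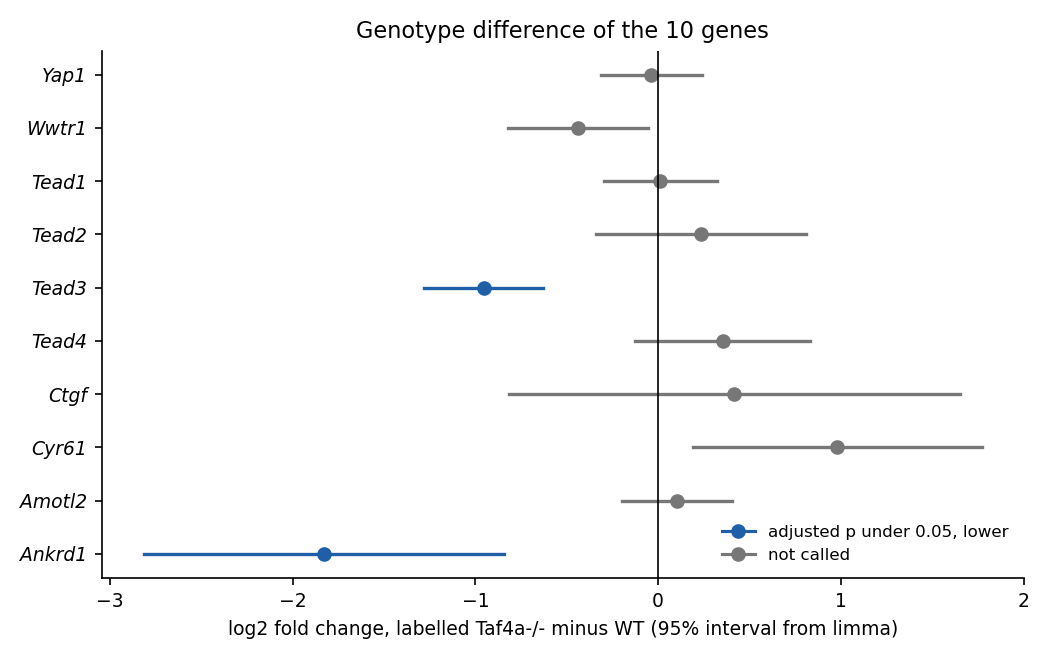
Log2 fold change (libraries labelled Taf4a-/- minus WT) of each of the 10 genes with its 95% interval from limma, blue where the adjusted p-value was under 0.05 and grey otherwise. The intervals of Tead3 (-1.28 to -0.63) and Ankrd1 (-2.81 to -0.84) lie below 0 and are called, and that of Ctgf (-0.82 to 1.65) is the widest.

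To compare levels between genes, normalized counts were divided by the kilobases of merged exons of each gene. On this scale *Tead2* supplied the largest share of the Tead RNA, with 61.0% and 46.7% of the sum of the 4 genes in WT, against 61.8% and 60.3% in the libraries labelled *Taf4a*-/-. *Tead3* supplied 12.5% and 18.2% in WT against 8.00% and 7.20%. Its share did not overlap between genotypes, whereas the shares of *Tead1* and *Tead2* did. *Tead4* supplied 5.75% and 5.47% in WT against 6.62% and 7.36%, also without overlap. The sum of the 4 genes was 2479.6 and 1948 normalized counts per kilobase in WT, against 2211 and 2304 in the libraries labelled *Taf4a*-/-, which lay between the WT values. The ratio of *Yap1* to *Wwtr1* per kilobase was 1.45 and 1.11 in WT, against 1.56 and 1.78 in the libraries labelled *Taf4a*-/-. It depends on the length used, and with the longest coding transcript its mean was 2.78 in WT, against 3.65 in the libraries labelled *Taf4a*-/-, in place of 1.28 and 1.67. The count of *Tead1* was divided by its full merged length, including the exon bases shared with the second annotated gene, so its level and the Tead shares may be affected by how those reads were counted. These shares and ratios carry no test.

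**Figure D3:**
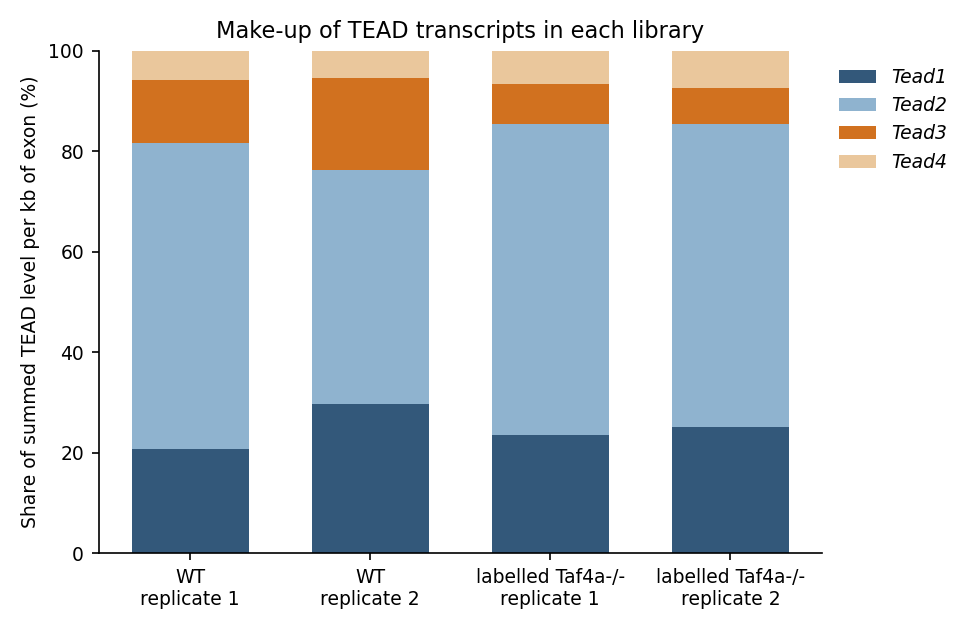
Share (%) of each Tead gene in the sum of the 4 Tead genes per kilobase of merged exons, 1 stacked bar per library. The Tead3 segment is 12.5% and 18.2% in the WT libraries and 8.00% and 7.20% in those labelled Taf4a-/-, and Tead2 is the largest segment in each library, from 46.7% to 61.8%.

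In order of level per kilobase of merged exons, *Cyr61* led in WT with 2288 ± 1041, followed by *Ctgf* with 2176 ± 1457, *Tead2* with 1211 ± 427 and *Yap1* with 846 ± 1.89 (SD, n = 2). Neighbours from *Cyr61* to *Tead2*, and again from *Amotl2* through *Wwtr1* and *Ankrd1* to *Tead1*, overlapped between libraries, whereas *Tead3* (333 ± 31.0) and *Tead4* (125 ± 25.5) lay separately at the bottom. In the libraries labelled *Taf4a*-/-, *Cyr61*, *Ctgf*, *Tead2* and *Yap1* again led, at 4335 ± 1013, 2686 ± 1155, 1379 ± 16.6 and 824 ± 27.2. There *Yap1* overlapped *Amotl2*, at 777 ± 42.9. *Ankrd1* stood eighth at 175 ± 86.9, with values that overlapped those of *Tead3*, and *Tead3* at 171 ± 7.76 overlapped *Tead4* at 158 ± 16.3. The order depends on the length used. *Ctgf* and *Tead1* were divided by their full length, including exon bases shared with another annotated gene. Their places, and that of *Ctgf* beside *Cyr61*, may therefore be affected by how reads there were counted. With the longest coding transcript *Yap1* was at 1877 ± 4.19 in WT, above *Tead2* at 1665 ± 587 but overlapping it. In the libraries labelled *Taf4a*-/-, *Tead3* (272 ± 12.3) was then separate from *Tead4* (185 ± 19.0). *Ankrd1* came last by its mean, at 175 ± 86.9, with values that overlapped those of *Tead4*.

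The targets *Ctgf* and *Cyr61* encode secreted CCN matrix proteins. *Ctgf* (ENSMUSG00000019997, chr10:24315248-24318489, plus strand) stood at 2852 and 7984 normalized counts in the WT lines, against 8723 and 4655 in the libraries labelled *Taf4a*-/-. The groups overlapped, and the spread within each genotype exceeded the difference between them. The log2 fold change was 0.42 (SE 0.51, 95% interval -0.82 to 1.65, adjusted p = 0.564 from limma). It was 1.16 without WT replicate 2, -0.33 without WT replicate 1 and -0.04 without the library labelled *Taf4a*-/- replicate 1. The lincRNA gene *Gm15270* on the other strand shares 22.9% of its exon bases, and the library kit does not mark strand. *Cyr61* (ENSMUSG00000028195, chr3:145309935-145312949, minus strand) had 3147 and 6132 normalized counts in WT, against 10244 and 7339 in the libraries labelled *Taf4a*-/-. Both of the latter were above both WT libraries, a 1.89-fold difference in means. The log2 fold change of 0.98 (SE 0.33, 95% interval 0.19 to 1.77) missed the threshold over all genes (limma, adjusted p = 0.0681). It passed without WT replicate 2 (1.46, adjusted p = 0.0465) and without the library labelled *Taf4a*-/- replicate 2 (1.22, adjusted p = 0.0362), and was 0.50 without WT replicate 1 (adjusted p = 0.179).

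*Ankrd1* (ENSMUSG00000024803, chr19:36186455-36194334, minus strand), a muscle ankyrin repeat protein of cardiac sarcomeres and nuclei, fell the most of the 10 genes. It had 773 and 1368 normalized counts in WT, against 417 and 200.2 in the libraries labelled *Taf4a*-/-, which is 1071 ± 421 against 309 ± 153 (SD, n = 2 each). Both WT libraries were above both others, although replicates differed within each genotype. The means differed 3.47-fold, with a log2 fold change of -1.83 (SE 0.41, 95% interval -2.81 to -0.84, adjusted p = 0.0228 from limma). The call was lost without WT replicate 2 (-1.42, adjusted p = 0.138) and with no variance trend in the model (adjusted p = 0.0796). *Amotl2* (ENSMUSG00000032531, chr9:102619002-102635748, plus strand), an angiomotin-family protein that binds Yap, had 4268 and 4839 normalized counts in WT, against 5078 and 4696 in the libraries labelled *Taf4a*-/-. These overlapped, with a log2 fold change of 0.10 (95% interval -0.20 to 0.40, adjusted p = 0.557 from limma).

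Markers of other cell types moved with the genotype beside *Ankrd1* and *Tead3*. The 10 cardiomyocyte markers summed to an 11.3-fold lower level in the libraries labelled *Taf4a*-/-. Of 8 fibroblast and mesenchyme markers 7 were called lower, and their sum was 429319 to 596621 normalized counts in WT against 48130 to 60341. Of 5 smooth muscle markers 2 were lower, with sums of 29922 to 53617 against 19733 to 20615. All 8 visceral endoderm and 6 macrophage markers tested were lower, with sums of 80152 to 94153 against 1049.6 to 1708 and of 8842 to 11359 against 252 to 368, and *Alb* and *C1qa* were at 0 in both libraries labelled *Taf4a*-/-. Of 10 markers of undifferentiated ESCs 8 were higher, with sums of 2935 to 5847 against 17272 to 19429. Sums overlapped between genotypes for 6 endothelial markers (7324 to 11126 against 5773 to 9689) and for 4 neural ones (3309.6 to 4249 against 4244 to 5986). Of 5 trophoblast markers 1 was called lower and 0 higher. Without overlap, 3 of these 5 lay below WT and 2 above it, where 36.6% and 34.5% of all tested genes did. Beside all these counts of calls, 17.3% of all tested genes were called lower and 11.3% higher. The part of these cell types in the values of the Hippo effectors and targets was not tested.

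Of the 10 genes, *Ctgf*, *Cyr61* and *Ankrd1* differed most between libraries of the same genotype, and did so for both genotypes. *Ctgf* was 2.80-fold higher in WT replicate 2 than in replicate 1, where 6.96% of tested genes differed at least 2-fold between these libraries. *Cyr61* was 1.95-fold higher and *Ankrd1* 1.77-fold higher in WT replicate 2. In the libraries labelled *Taf4a*-/-, *Ankrd1* was 2.08-fold higher in replicate 1 than in replicate 2, *Ctgf* 1.87-fold and *Cyr61* 1.40-fold. All 4 targets were higher in WT replicate 2 than in WT replicate 1 and lower in the library labelled *Taf4a*-/- replicate 2 than in replicate 1, as were *Wwtr1* and *Tead3*. Of all tested genes, 26.6% had both of these directions, and of 18 other targets 8 had them. The 5 smooth muscle markers all had these directions too, with sums of 29922 and 53617 in the WT lines, against 20615 and 19733 in the libraries labelled *Taf4a*-/-. They were 1 of 9 marker lists examined, and in the other lists 2 of 9 cardiomyocyte, 2 of 8 fibroblast and mesenchyme, 0 of 6 endothelial, 1 of 10 undifferentiated ESC, 1 of 8 visceral endoderm, 1 of 6 macrophage, 1 of 5 trophoblast and 1 of 3 neural markers had both directions. The steadiest member in WT was *Yap1*, where 0.910% of tested genes had a smaller difference between the WT libraries. The part of smooth muscle cells in the differences of the targets between lines was not tested.

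**Figure D4:**
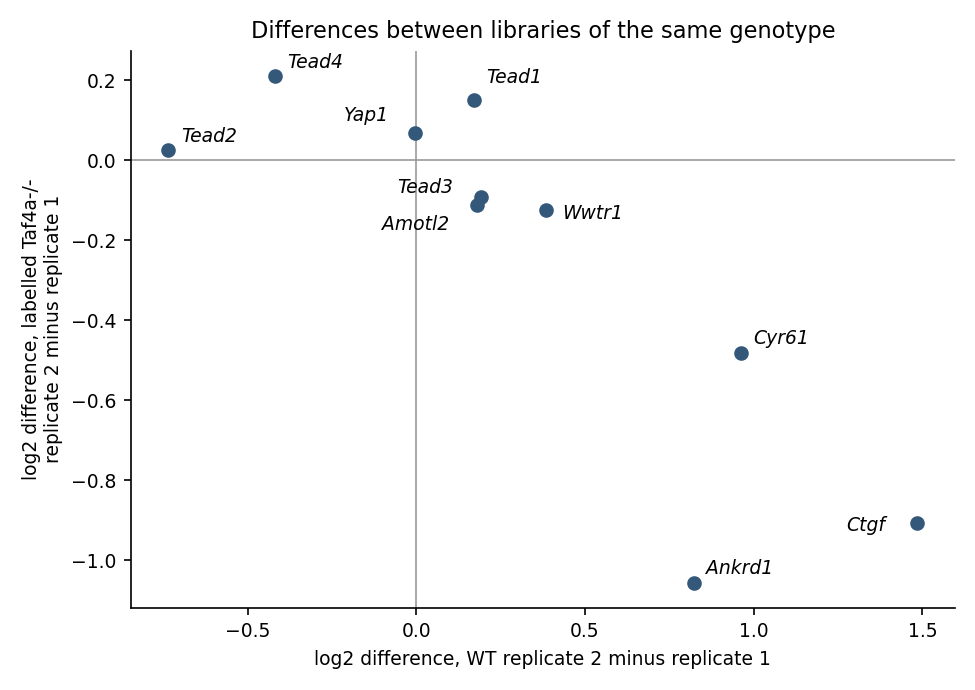
Log2 difference of each of the 10 genes between the libraries of the same genotype, WT replicate 2 minus 1 on the horizontal axis and labelled Taf4a-/- replicate 2 minus 1 on the vertical axis, 1 point per gene. Ctgf (1.48 and -0.91), Cyr61 (0.96 and -0.48) and Ankrd1 (0.82 and -1.06) lie far from the origin at lower right, and Yap1 lies close to it.

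Of the wider pathway, 31 regulators and partners of Yap, Taz and the Tead factors were tested, of which 3 were called higher and 4 lower in the libraries labelled *Taf4a*-/-, 9.68% and 12.9%, with a median log2 fold change of -0.09. These shares are near the 11.3% and 17.3% of all tested genes. *Stk4*, which encodes the kinase Mst1, rose, with 2169.9 and 2226 normalized counts in WT, against 3053 and 3127 in the libraries labelled *Taf4a*-/-. These groups were well apart, at a log2 fold change of 0.49 (SE 0.11, adjusted p = 0.0225 from limma). The call was lost without either library labelled *Taf4a*-/- and with no variance trend (adjusted p = 0.0806 from limma). When 1 library was left out, the log2 fold change ran from 0.47 to 0.51. The rest of the core cassette was not called with all 4 libraries. The log2 fold changes were -0.49 for *Stk3* (Mst2), 0.35 for *Sav1*, -0.29 for *Lats1*, 0.18 for *Lats2*, 0.41 for *Mobkl1a* (Mob1b) and -0.48 for *Mobkl1b* (Mob1a), and 0.34 for the upstream activator *Nf2* (Merlin), with adjusted p-values from 0.0838 to 0.264 from limma. Some passed when 1 library was left out. These were *Stk3* at -0.72 (adjusted p = 0.0196) and *Nf2* at 0.48 (0.0286) without WT replicate 1, *Mobkl1a* at 0.63 (0.0419) without WT replicate 2, and *Mobkl1b* at -0.94 (0.0223) without the library labelled *Taf4a*-/- replicate 2.

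*Jub* (Ajuba), a LIM protein that inhibits the Lats kinases, rose from 3179 and 2878 normalized counts in WT to 5611 and 5045 in the libraries labelled *Taf4a*-/-, by 0.81 on the log2 scale (SE 0.12, adjusted p = 0.00743 from limma, and 0.0502 without the library labelled *Taf4a*-/- replicate 1). The angiomotin gene *Amot* was also higher, by 0.78 (SE 0.21, adjusted p = 0.0359), while its paralogue *Amotl1* had a log2 fold change of -0.31 (SE 0.11, adjusted p = 0.0889). The call of *Amot* was lost without WT replicate 2 (adjusted p = 0.0598) and without either library labelled *Taf4a*-/- (adjusted p = 0.141 and 0.101), and with no variance trend (0.101). *Taok3*, a kinase of the Mst-activating Tao family, fell by 0.70 on the log2 scale (SE 0.13, adjusted p = 0.0150), and this call was lost without WT replicate 2 (adjusted p = 0.0504) or either library labelled *Taf4a*-/- (0.0968 and 0.0721).

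The Vgll proteins bind Tead factors in competition with Yap and Taz. *Vgll3* had 419 and 684 normalized counts in WT, against 286 and 282 in the libraries labelled *Taf4a*-/-, and fell by 0.91 on the log2 scale (SE 0.25, adjusted p = 0.0425 from limma). That call was lost without WT replicate 2, where the log2 fold change was -0.56, and without either library labelled *Taf4a*-/-. Without WT replicate 1 the log2 fold change was -1.26. The call was also lost with voom (adjusted p = 0.0578), and in limma with quantile normalization (0.0799) or no variance trend (0.101). *Vgll1* (33.3 and 18.7 against 3.92 and 5.53) and *Vgll2* (24.5 and 19.7 against 3.92 and 6.64) fell by 2.20 and 1.91 on the same scale (adjusted p = 0.0284 and 0.0372), with 4 to 6 reads in each library labelled *Taf4a*-/-. Both were separated from WT at few reads, and with a pseudocount of 10 in place of 1 the log2 fold changes were -1.26 and -1.08. The call of *Vgll1* was lost without WT replicate 1 (adjusted p = 0.0714), WT replicate 2 (0.0555) or the library labelled *Taf4a*-/- replicate 1 (0.0889), and that of *Vgll2* without any 1 of the 4 libraries (0.0618 to 0.157), with no filter (0.0514) and with quantile normalization (0.0584). *Vgll4* overlapped between genotypes at a log2 fold change of -0.09 (SE 0.12, adjusted p = 0.616).

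Of 18 further genes of a commonly used Yap and Taz target signature, 6 were called lower (33.3%, where 17.3% of all tested genes were) and 1 higher (5.56%, where 11.3% were), with a median log2 fold change of -0.23. *Lats2* and *Ptpn14* are in this list and in that of the regulators. Of the called genes, the largest falls were in *Axl*, a receptor tyrosine kinase (5650 and 8649 normalized counts in WT against 2503 and 3001), and in *Rbms3*, an RNA-binding protein (2834 and 2723 against 1205 and 1586). The groups were apart for both, and the log2 fold changes were -1.35 (SE 0.22, adjusted p = 0.00919 from limma) and -1.01 (SE 0.16, adjusted p = 0.00837). The membrane repair protein gene *Myof* fell by 0.99 (SE 0.17, adjusted p = 0.0106) and the growth factor gene *Tgfb2* by 0.85 (SE 0.12, adjusted p = 0.00585). *Dock5*, an exchange factor for Rac, was the gene called higher, at 0.69 (SE 0.16, adjusted p = 0.0239). The 11 genes not called ran from -1.11 to 1.71, so the largest rise of the list was not among the calls. The call of *Rbms3* was lost without WT replicate 2 (adjusted p = 0.0567), and that of *Dock5* without WT replicate 1 (0.0520) or either library labelled *Taf4a*-/- (0.155 and 0.0615). With no variance trend *Myof* (adjusted p = 0.0520) and *Dock5* (0.0710) were not called. The CCN target members, at 0.42 and 0.98, lay above the median of this list.

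**Figure D5:**
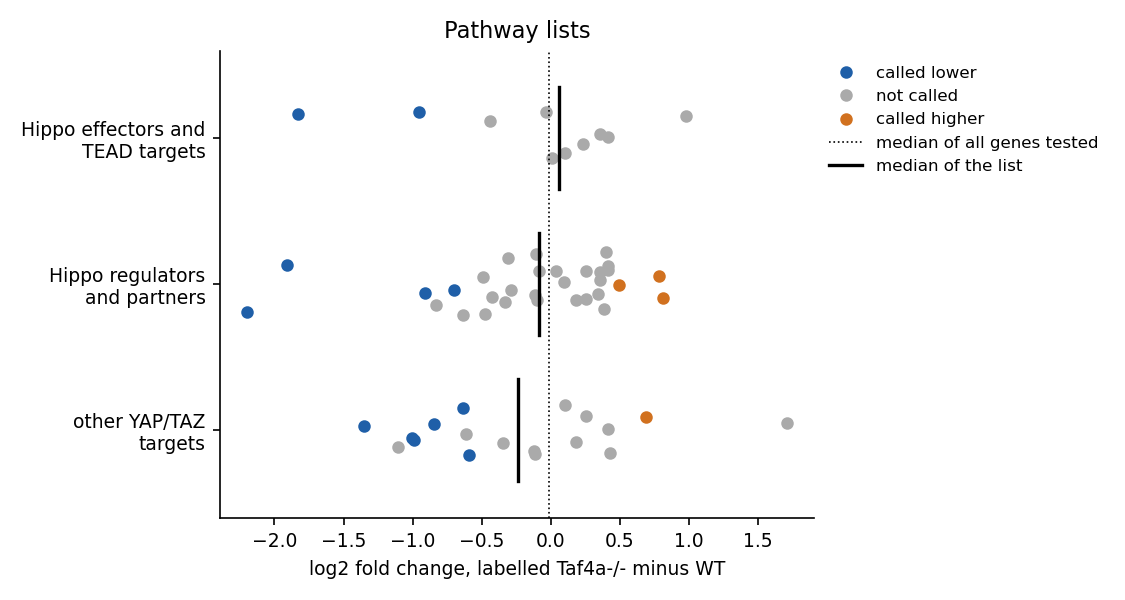
Log2 fold change (libraries labelled Taf4a-/- minus WT) of each tested gene of the members, the Hippo regulators and the other targets, 1 point per gene, coloured blue where called lower and orange where called higher, with the median of each list as a solid line and that of all tested genes as a dotted line. The called genes number 2 of 10, 7 of 31 and 7 of 18, and the medians are 0.06, -0.09 and -0.23.

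The CCN and muscle ankyrin repeat families hold further members. *Wisp1* (Ccn4) had 3326 and 4447 normalized counts in WT, against 1234 and 1365 in the libraries labelled *Taf4a*-/-. Both of the latter were under the WT values, and it fell by 1.57 on the log2 scale (SE 0.17, adjusted p = 0.00296 from limma), with values from -1.78 to -1.36 and adjusted p up to 0.0348 when 1 library was left out. *Nov* (Ccn3) had 18.4 and 37.4 against 10.8 and 11.1 normalized counts (log2 fold change -1.20, SE 0.50, adjusted p = 0.122), and *Wisp3* (Ccn6) had a log2 fold change of 0.14 (SE 0.51, adjusted p = 0.853). *Wisp2* (Ccn5), with 2 to 9 reads in a library, was under the minimum for testing. Of the muscle ankyrin repeat family, *Ankrd2* had 2 to 3 reads in a library and was not tested. *Ankrd23* had 92.1 and 79.0 normalized counts in WT, against 125 and 106 in the libraries labelled *Taf4a*-/-, above WT in both, at a log2 fold change of 0.43 (SE 0.26, adjusted p = 0.257 from limma). Of the 4 paralogues tested, 1 was called lower, where 17.3% of all tested genes were. The differences between *Wisp1* and the CCN members, and between *Ankrd23* and *Ankrd1*, were not tested.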

How the data were processed

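Polyadenylated RNA of 4 libraries, 2 per genotype, was analysed. Per the labels and the paper, the authors mapped reads to mm9 and deposited normalized counts, that is reads per gene divided by 1 size factor per library. For this step the authors named DESeq 2 in the paper. The submitters' processing notes name CASAVA 1.8, TopHat 1.3.3, HTSeq 0.5.3p1 and DESeq, with no version for the last. Each library's values were whole multiples of 1 read in 100% of cases (tolerance 0.01 read), and recovered totals were 21732746 to 27733034 reads. Genes whose mean normalized count was at least 10 (16926 of 24637) entered a limma fit (version 3.58.1, R 4.3.3, trended eBayes, prior degrees of freedom 4.17) on log2(normalized count + 1), which understates changes of genes with few reads. Calls needed an adjusted p-value under 0.05 (Benjamini-Hochberg). Intervals are at 95%. All 24637 identifiers were found in the GENCODE annotation of NCBIM37, which gave positions and exon lengths, and 99.4% had the same symbol there. Plots were made in matplotlib 3.10.9 under Python 3.11.15.

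The members and lists were chosen with earlier results of these data known. Named genes are the members, *Taf4a*, *Taf4b*, the paralogues, the core kinase cassette with *Nf2*, *Amot*, *Amotl1*, *Vgll1* to *Vgll4*, and up to 4 called falls and 4 called rises per list. Marker genes are named only for values at or near 0 (*Tnnc1*, *Alb* and *C1qa*), and 3 listed marker genes were not analysed here. The fit was tested on simulated reads with 200 genes changed, all with a mean of at least 50. Among 16911 genes tested, it recovered 100% of those changed by 1 or by 2 on the log2 scale, with 7.41% of its calls false. All genes were simulated with 1 dispersion, 0.00873, the median of the within-genotype spread. *Ctgf*, *Cyr61* and *Ankrd1* varied more than that between libraries of a genotype, so this recovery does not apply to them. Tried as alternatives were a different pseudocount, filter, scaling, threshold or variance model, voom on the recovered reads, a replicate block and leaving out each library. Lengths of the longest coding transcript were added after the data were seen. With each library taken as 1 line, p-values measure the spread between these lines only.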

Additional observations from a re-analysis of the deposited data

How the results depend on the processing

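*Tead3* and *Ankrd1* kept their direction in each of the 10 alternative settings and *Tead3* kept its call in all of them. Called members lower numbered 1 without a variance trend or when adjusted p had to be under 0.01, where *Ankrd1* was lost, and 2 in the other settings. The median of the members was 0.12 with equal totals. *Yap1* turned to 0.022 with equal totals and 0.0014 with quantile normalization, under which the all-gene median was 0.11 in place of -0.01. All genes called were 856 higher and 1741 lower without the trend, 331 and 1119 at the 0.01 threshold, and 2676 and 2448 after quantile normalization, in place of 1906 and 2928. Regulators called higher numbered 1 with no variance trend and at 0.01, and those called lower numbered 2 at a mean of at least 50 or with quantile normalization and 0 at 0.01. Their median was 0.040 at a mean of at least 50, -0.025 with equal totals and -0.069 with quantile normalization. Other targets called higher numbered 2 with pseudocount 10, voom or the replicate block, 3 with quantile normalization and 0 with no variance trend or at 0.01, and those called lower 3 at 0.01 or without the trend. The cause was not tested.

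When 1 library was left out, which assumes that the lone library varies like the pair of the other genotype, genes called ran from 624 to 2476 higher and 1222 to 3038 lower, and members from 0 to 1 higher and 1 to 3 lower, with a median of -0.055 to 0.048. Regulators ran from 0 to 6 higher and 1 to 3 lower (median -0.025 to 0.039), and other targets from 0 to 2 higher and 4 to 6 lower (median -0.32 to -0.14). Log2 fold changes ran from -0.073 to 0.097 for *Tead1*, -0.13 to 0.60 for *Tead2*, -0.33 to 1.16 for *Ctgf* and -0.23 to 0.52 for *Wisp3*. The replicate numbers did not pair the libraries (correlation of same-numbered deviations 0.01 over 16926 genes). With a replicate block 1536 genes were higher and 2657 lower, members were 0 higher and 2 lower, and *Vgll2* lost its call (adjusted p = 0.0602). The planned count tests other than voom were not run. Depth limits *Vgll1*, *Vgll2*, *Wisp2*, *Wisp3* and *Ankrd2*, and 2 libraries per genotype limit every call.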
